A study of Mus musculus with 8 samples.

Results

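Heparin and chondroitin sulfate synthesis was examined as a module of 39 listed genes that build the sulfated sugar chains of the mast cell granule. The genes were taken by symbol from a list, by a rule that uses no measured value, and all 39 were found among the 56748 gene IDs of the count tables. The list itself was drawn up with earlier results of these data known. The 39 genes comprised the core protein serglycin, 6 enzymes of the linkage region, 4 of heparin chain polymerization, 8 of heparin modification, 6 of chondroitin polymerization, 8 of chondroitin and dermatan modification and 6 genes of precursor supply.

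Poly-A RNA was sequenced from resting bone marrow-derived mast cells (BMMCs), which were grown from the marrow of C57BL/6 mice 6 to 8 weeks old in medium with IL-3. In the Mettl3-RNP group (genotype label Mettl3 KO, 4 libraries) the cells had been electroporated with ribonucleoproteins of Cas9 and guide RNAs against Mettl3. Mettl3 is the methyltransferase that puts m6A, a methyl group on adenosine, into mRNA. In the Pulsed group (genotype label Mettl3 WT, 4 libraries) the cells had been mock transfected and had received no Cas9 RNP, so the groups differed in Cas9 exposure as well as in Mettl3. The Mettl3-RNP cells were a population in which some cells remained untargeted, and neither group had been stimulated.

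Glycosaminoglycans are made in the Golgi. A xylose is placed on a serine of a core protein, a linkage tetrasaccharide is completed, and the chain is then extended either as heparan sulfate and heparin or as chondroitin and dermatan sulfate. Sulfotransferases decorate the growing chain with sulfate taken from the donor PAPS. In mast cells most of these chains sit on serglycin, and the negative charge of heparin or of highly sulfated chondroitin retains proteases and histamine in the granule. BMMCs grown in IL-3 are known for chondroitin sulfate carrying more than a single sulfate on its amino sugar, while mast cells of connective tissue are known for heparin.

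The attachment sites of these chains lie in a repeat of serine and glycine codons in Srgn. It is shown because the xylosyltransferases of the module act on its serines, where the chains begin. The stretch was read from the canonical GENCODE M39 transcript and lies in coding exon sequence at chr10:62330762-62330851 (GRCm39, minus strand). Capitals mark the 10 consecutive serine-glycine codon pairs, which fill codons 90 to 109 of 152 and are all the pairs of this kind in the coding sequence.
Srgn: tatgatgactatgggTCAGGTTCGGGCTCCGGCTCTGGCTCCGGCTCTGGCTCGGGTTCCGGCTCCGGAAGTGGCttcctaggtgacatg

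Total counts ranged from 32643260 to 45324826 per library, and the 39 genes together held 0.678% to 0.849% of them. Expression was given as CPM, counts per 1000000 counts with library sizes scaled by the trimmed mean of M values (TMM). Mettl3 itself was 8.88 ± 3.04 CPM (SD, n = 4) in Mettl3-RNP and 22.0 ± 7.28 CPM (SD, n = 4) in Pulsed libraries and fell in 4 of 4 pairs, with a log2 fold change of -1.30 and an adjusted p of 0.00543 (0.744 without the replicate block). Pulsed 3, at 11.1 CPM, lay below Mettl3-RNP 1, at 12.3 CPM, so the groups overlapped. The summed level of 10 mast cell markers was 38410 to 54120 CPM in Mettl3-RNP and 43353 to 61020 CPM in Pulsed libraries, and 1 of the 10, the carboxypeptidase Cpa3, fell. Cpa3 was the most abundant of the 10, at 23241 ± 4915 CPM against 30385 ± 7692 CPM. The fitted log2 fold change was above 0 for 6 of the 10 markers and below 0 for 4. Summed markers of neutrophils (8 genes, S100a8, S100a9, Elane and Camp at 0 counts throughout) stayed at or below 0.397 CPM and those of fibroblasts (6 genes, Dcn at 0) at or below 2.33 CPM. Macrophage markers (8 genes) summed to 139 to 404 CPM in Mettl3-RNP and 64.8 to 387 CPM in Pulsed libraries, nearly all of it from Cx3cr1, while C1qa and Csf1r were near 0 and Adgre1 fell. Basophil markers (5 genes) summed to 1792 to 2417 CPM against 2241 to 3318 CPM, and 2 of the 5, Il18rap and Ifitm1, fell. Most of the lower sum was Ifitm1, at 1387 ± 277 CPM against 2096 ± 407 CPM, while Cd200r3 was higher in 4 of 4 pairs, at 687 ± 134 CPM against 572 ± 58.0 CPM, short of the threshold (log2 fold change 0.25, adjusted p = 0.151). The erythroid sums (6 genes) were 2.38 to 3.57 CPM and 3.71 to 5.16 CPM. The part of other cells in the values below was not tested, and in bulk RNA fewer cells of a type cannot be told apart from less RNA per cell.

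To compare transcripts with one another, CPM was divided by the length of the canonical transcript in kb. Srgn was the most abundant transcript of the module in Pulsed cells, at 1495 ± 239 CPM per kb (SD, n = 4). Papss2, which makes the sulfate donor PAPS, followed at 278 ± 73.6 CPM per kb, and Ndst2, the N-deacetylase and N-sulfotransferase needed for mast cell heparin, at 126 ± 34.3 CPM per kb. Next came the 6-O-sulfotransferase Hs6st2 (95.5 ± 3.76 CPM per kb), the chondroitin synthase Chsy1 (70.2 ± 12.2) and the 3-O-sulfotransferase Hs3st1 (65.8 ± 30.8). The libraries of Hs6st2 lay above those of Chsy1, and those of Hs3st1 overlapped with both. Divided by the length of all annotated exons, a choice added after the values were seen, the first 3 genes kept their order, but Chsy1 (70.2 CPM per kb) came before Hs6st2 (53.2) and Hs3st1 (33.6). The most abundant transcripts thus included genes of the heparin branch and of the chondroitin branch. At the lower end, the gene that starts heparan chains, Extl3, had 0.460 ± 0.0119 CPM per kb and the chondroitin polymerizing factor Chpf had 0.359 ± 0.216 CPM per kb.

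**Figure D1:**
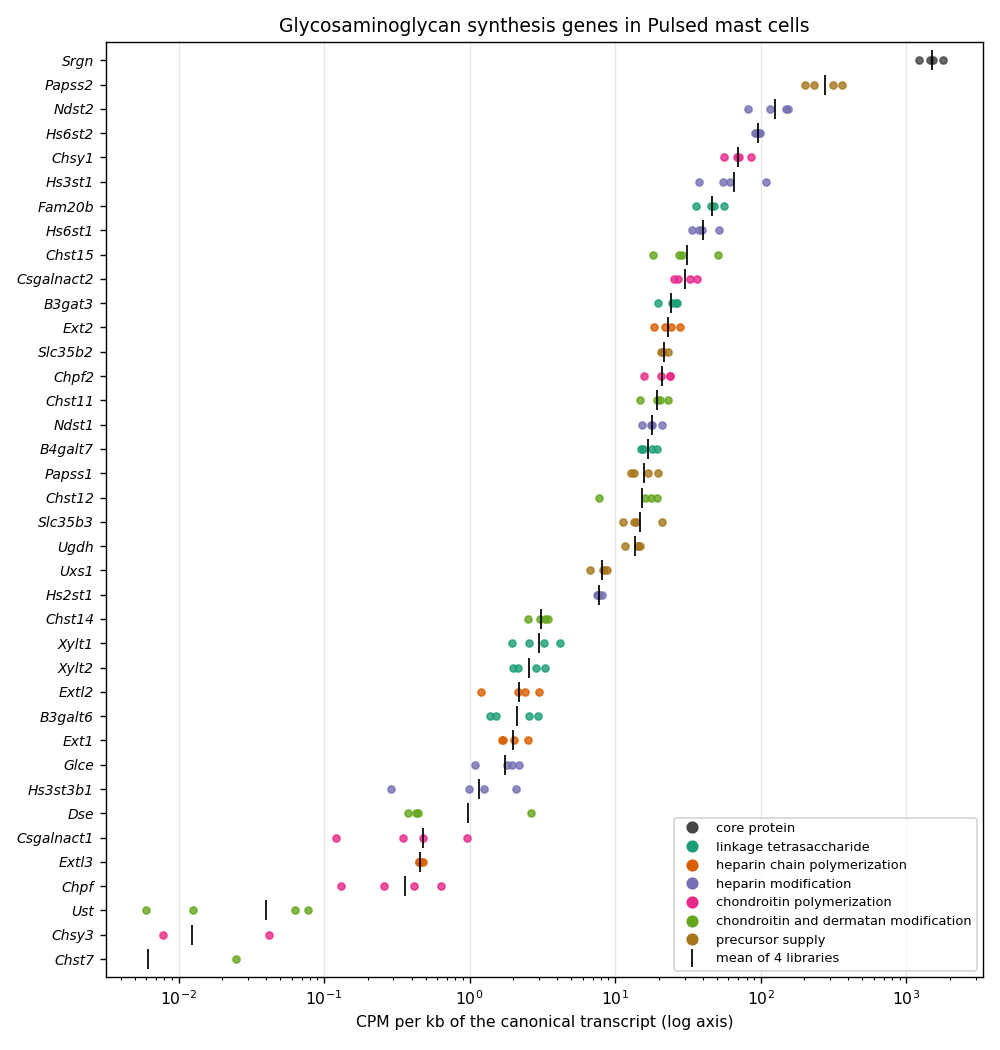
Level of each gene in the 4 Pulsed libraries, in CPM per kb of canonical transcript on a log axis, 1 point per library, coloured by role, with a bar at the mean. Libraries at 0 cannot be drawn on this axis, and Chst3 is left out because it had 0 counts in all libraries. Srgn stands at 1495 CPM per kb, above Papss2 at 278 CPM per kb and Ndst2 at 126 CPM per kb.

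Of enzymes that share a step, usually 1 carried most of the transcript. Per kb, Papss2 made up 94.5% ± 0.735 of the 2 PAPS synthases in Pulsed libraries, Csgalnact2 98.5% ± 0.996 of the 2 initiating chondroitin transferases and Ndst2 82.8% ± 5.63 of Ndst1, Ndst2 and Ndst3 (SD, n = 4 each). In Mettl3-RNP libraries the shares were 94.6% ± 1.16, 99.3% ± 0.435 and 83.2% ± 4.55. The chondroitin 4-O-sulfotransferases were balanced differently. Chst12 held 43.3% ± 12.8 of the sum of Chst11 and Chst12 in Pulsed libraries, with a range of 25.1% to 54.0%, and 58.1% ± 5.79 in Mettl3-RNP libraries, with a range of 51.8% to 64.6%. With exon lengths of the whole gene the shares of Chst12 were lower, 31.7% ± 10.8 and 45.2% ± 5.91. Xylt1 held 53.3% ± 4.15 of the 2 xylosyltransferases in Pulsed and 62.1% ± 3.34 in Mettl3-RNP libraries, and here the ranges of the groups, 47.5% to 56.4% and 57.1% to 64.3%, were apart. These shares are descriptions and were not tested.

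The question put to the libraries was whether expression of the module differed between Mettl3-RNP and Pulsed cells. Of the 39 genes, 36 were expressed highly enough to be tested among 14942 genes, with the replicate number as a block. Chst12, Extl3, Xylt1 and Slc35b2 rose at an adjusted p of 0.05 or less (edgeR quasi-likelihood test with Benjamini-Hochberg adjustment), which is 4 of 36 tested members, or 11.1%, where 2.35% of all tested genes rose. The list was drawn up with earlier results of these data known, so this share is a description. No member fell at this threshold, where 1.39% of all tested genes fell. A fold change of at least 1.5 besides was reached by Chst12 and Extl3, 2 of 36 or 5.56%, where 1.24% of all tested genes did so. The smallest adjusted p among the other 32 tested members was 0.0589 and their median 0.430. All 4 calls depended on the pairing and on 1 pair of libraries. Without the replicate block none of 14942 genes passed in edgeR, and 4 of 36 members had an unadjusted p under 0.05, where 3.87% of all genes did. Without replicate 2 none of the members passed in edgeR, where 0.0738% of 14904 genes rose. At an unadjusted p under 0.05 there were then 8 of 36 members, where 15% of those genes passed in either direction. The 4 members were also called by limma-voom, in which 2.67% of all genes rose, and by DESeq2. DESeq2 called 8 of 36 members in all, each higher, and made more calls throughout, with 5.55% of all genes higher. With all genes of at least 1 count tested, 7 of 38 members rose, where 1.9% of 33650 genes did, and with 10 counts required in every library 5 of 35 members rose, where 4.69% of 12504 genes did.

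The fitted log2 fold change was above 0 for 26 of 36 tested members and below 0 for 10, with a median of 0.14, beside a median of -0.0013 and 49.8% above 0 over all tested genes. Leaving aside the 4 that passed, 22 of 32 were above 0 and 10 below, with a median of 0.13, values that did not pass the test gene by gene. Within the pairs, 15 of 36 members (41.7%) were higher in 4 of 4 pairs, where 15.7% of all genes were, or 11 of the 32 that did not pass, and 1 of 36 (2.78%) was lower in 4 of 4 pairs, where 16% of all genes were. The groups did not overlap, with Mettl3-RNP higher, for Chst12, Extl3, Slc35b2 and Fam20b (11.1% of tested members, 2.03% of all genes). They did not overlap in the other direction for Hs6st2 alone (2.78% of tested members, 1.2% of all genes). With 4 pairs, an exact sign-flip permutation test of a single gene cannot reach a two-sided p under 0.05, so no such p is given.

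**Figure D2:**
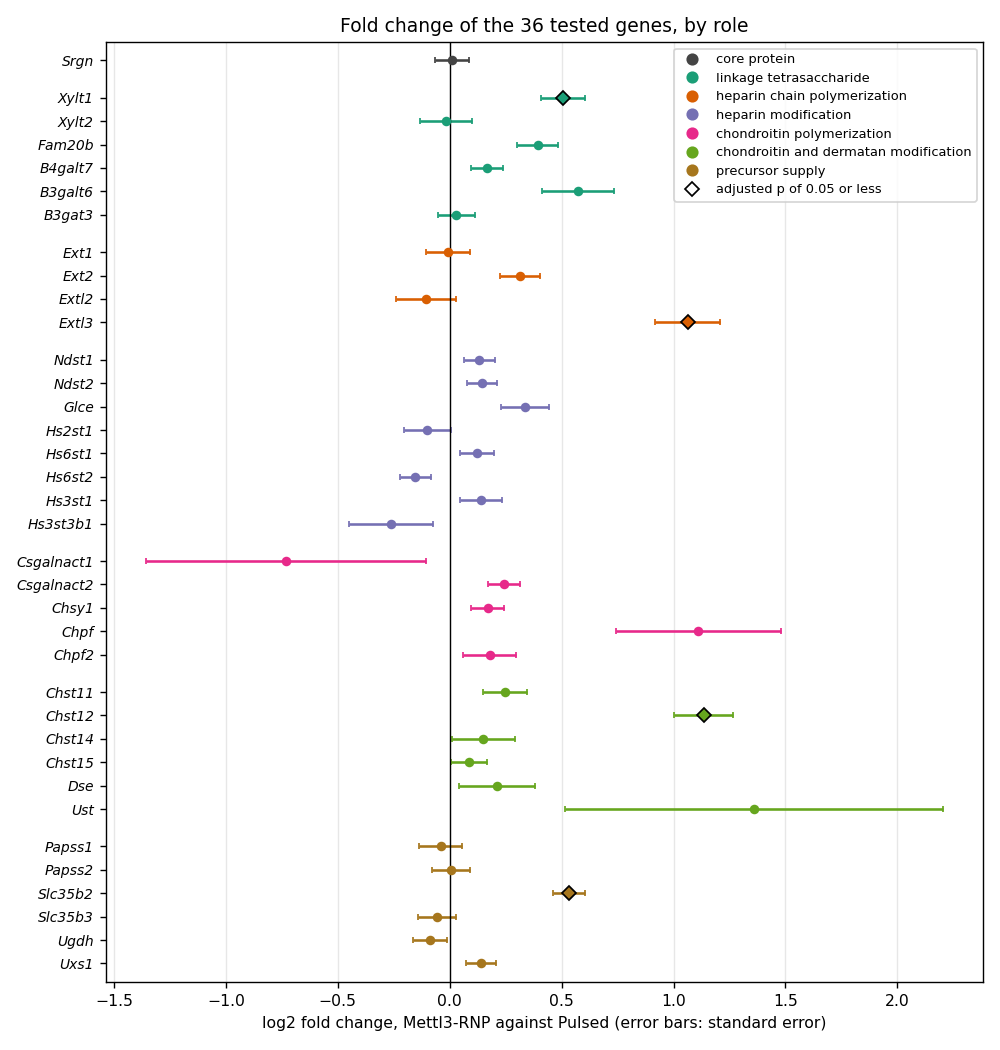
Log2 fold change of Mettl3-RNP against Pulsed for the 36 tested genes, grouped and coloured by role, with the standard error as bars and outlined diamonds for an adjusted p of 0.05 or less. Extl3 and Chst12 stand above 1, Xylt1 and Slc35b2 near 0.5, and most of the other 32 points lie close to 0, 22 to its right and 10 to its left. Chpf and Ust have large estimates with wide bars and did not pass.

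Srgn, the core protein, did not pass the test between the groups. Its level was 2331, 3443, 3965 and 3457 CPM in Mettl3-RNP 1 to 4 and 2639, 3291, 3899 and 3147 CPM in Pulsed 1 to 4. Replicate 1 was the lowest and replicate 3 the highest in both groups, which overlapped almost completely. The log2 fold change was 0.01 with a standard error of 0.0765 (adjusted p = 0.950).

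The linkage region begins with xylose, which Xylt1 and Xylt2 place on the core protein. Xylt1 rose, from 27.6 ± 8.95 CPM (SD, n = 4) in Pulsed to 38.3 ± 6.72 CPM (SD, n = 4) in Mettl3-RNP libraries. By library it was 42.1, 29.4, 44.6 and 37.0 CPM in Mettl3-RNP 1 to 4 and 29.8, 18.0, 38.9 and 23.7 CPM in Pulsed 1 to 4. Each Mettl3-RNP library lay above the Pulsed library of its number, but the groups overlapped, since Pulsed 3 was above Mettl3-RNP 2 and 4. The log2 fold change was 0.51 with a standard error of 0.0986 (adjusted p = 0.0355). Of the 4 genes that rose it was the most sensitive to the libraries used, with an adjusted p of 0.102 without replicate 1, 0.159 without replicate 2 and 0.0905 without replicate 4. Xylt2 was at 12.4 ± 0.867 and 12.7 ± 3.00 CPM, a log2 fold change of -0.02.

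The next linkage enzymes gave values in the same direction short of the threshold. Fam20b, the kinase that phosphorylates this xylose, was 279, 260.0, 259 and 281 CPM in Mettl3-RNP 1 to 4 and 251, 203, 162 and 214 CPM in Pulsed 1 to 4. All Mettl3-RNP libraries were above all Pulsed libraries, and the adjusted p was 0.0589 at a log2 fold change of 0.39 with a standard error of 0.0918. It passed in DESeq2 (adjusted p = 0.00182) and with 10 counts required in every library (adjusted p = 0.0357), but in edgeR with any 1 pair left out the adjusted p was between 0.107 and 0.196. B3galt6, which adds the second galactose, was 7.93, 10.9, 9.45 and 10.2 CPM in Mettl3-RNP 1 to 4 and 4.41, 8.19, 4.84 and 9.41 CPM in Pulsed 1 to 4. The Pulsed libraries fell into a low pair, 1 and 3, and a high pair, 2 and 4, the latter overlapping with Mettl3-RNP. Its log2 fold change was 0.57 with a standard error of 0.160 (adjusted p = 0.0864, 0.0436 in DESeq2 and 0.0140 when all genes with at least 1 count were tested). Like Fam20b, neither B3galt6 nor Ext2, Csgalnact2 or Chpf, which follow, passed in edgeR with any pair left out. B4galt7, which adds the first galactose, had a log2 fold change of 0.16 (adjusted p = 0.226) and the glucuronyltransferase B3gat3, which completes the tetrasaccharide, one of 0.03 (adjusted p = 0.876).

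Heparan chains are begun by Extl3, which adds the first N-acetylglucosamine, and extended by the complex of Ext1 and Ext2. Extl3 rose from 4.13 ± 0.107 CPM (SD, n = 4) to 8.75 ± 1.82 CPM (SD, n = 4). It was 7.20, 9.98, 7.18 and 10.6 CPM in Mettl3-RNP 1 to 4, while the Pulsed libraries were tightly grouped at 4.16, 4.04, 4.05 and 4.27 CPM. The groups did not overlap, and Mettl3-RNP 2 and 4 were higher than Mettl3-RNP 1 and 3. The log2 fold change was 1.06 with a standard error of 0.145 (adjusted p = 0.0165), and 0.97 without replicate 2 (adjusted p = 0.0937). Per kb Extl3 remained among the scarcer transcripts of the module, at 0.975 ± 0.203 CPM per kb in Mettl3-RNP libraries.

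The chain polymerases themselves did not pass. Ext1 was 11.5, 13.2, 22.4 and 14.5 CPM in Mettl3-RNP 1 to 4 and 12.8, 13.2, 19.5 and 15.5 CPM in Pulsed 1 to 4, with a log2 fold change of -0.01 (adjusted p = 0.976). In both groups replicate 3 was the highest. Ext2 was 66.1, 94.2, 106 and 77.0 CPM in Mettl3-RNP 1 to 4 and 65.2, 71.2, 83.0 and 55.1 CPM in Pulsed 1 to 4. It was higher in each Mettl3-RNP library than in its partner, by little in replicate 1, with a log2 fold change of 0.31, a standard error of 0.0884 and an adjusted p of 0.0883 (0.0212 in DESeq2). Extl2, a transferase that can end a chain, had a log2 fold change of -0.10 (adjusted p = 0.702).

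None of the 8 heparin-modifying genes passed, with 5 fitted above 0 and 3 below and a median log2 fold change of 0.13. Ndst2, which replaces acetyl by sulfate on the amino sugar, was 653, 519, 381 and 659 CPM in Mettl3-RNP 1 to 4 and 623, 465, 327 and 604 CPM in Pulsed 1 to 4. Replicate 3 was lowest in both groups, and each Mettl3-RNP library lay slightly above its partner. The log2 fold change was 0.14 with a standard error of 0.0659 (adjusted p = 0.246). Ndst1, with the same activity, was 137, 127, 146 and 104 CPM in Mettl3-RNP 1 to 4 and 114, 116, 138 and 99.8 CPM in Pulsed 1 to 4 (log2 fold change 0.13, adjusted p = 0.308). Here too each Mettl3-RNP library was above its partner, within overlapping groups.

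Glce turns glucuronic into iduronic acid. It was 13.7, 11.6, 7.42 and 10.7 CPM in Mettl3-RNP 1 to 4 and 10.7, 8.92, 5.36 and 9.63 CPM in Pulsed 1 to 4, a log2 fold change of 0.34 with a standard error of 0.106 (adjusted p = 0.114). The 2-O-sulfotransferase Hs2st1 had a log2 fold change of -0.10 and the 6-O-sulfotransferase Hs6st1 one of 0.12, with adjusted p of 0.633 and 0.392. Hs6st2 was the only member lower in 4 of 4 pairs, and its values by library were looked at for that reason, after they had been seen. It was 344, 381, 395 and 374 CPM in Mettl3-RNP 1 to 4 and 404, 433, 399.6 and 425 CPM in Pulsed 1 to 4. The highest Mettl3-RNP library lay just under the lowest Pulsed library, and the log2 fold change was -0.15 with a standard error of 0.0691 (adjusted p = 0.238). The 3-O-sulfotransferases Hs3st1, whose product binds antithrombin, and Hs3st3b1 had log2 fold changes of 0.14 and -0.26, both short of the threshold (adjusted p = 0.437 and 0.466).

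None of the 5 tested chondroitin-polymerizing genes passed, 4 being fitted above 0 and 1 below. Csgalnact2, which starts the chondroitin chain, was 165, 135, 175 and 138 CPM in Mettl3-RNP 1 to 4 and 156, 108, 140.2 and 116 CPM in Pulsed 1 to 4. Each Mettl3-RNP library lay above its partner in overlapping groups, with a log2 fold change of 0.24, a standard error of 0.0714 and an adjusted p of 0.0970 (0.0338 in DESeq2). Its paralogue Csgalnact1 was at 1.05 ± 0.539 and 2.05 ± 1.52 CPM, a log2 fold change of -0.73 with a standard error of 0.625. The polymerases Chsy1 and Chpf2 had log2 fold changes of 0.17 and 0.18 (adjusted p = 0.217 and 0.423). Chpf, a partner of Chsy1, was scarce, at 3.14, 1.63, 1.54 and 2.11 CPM in Mettl3-RNP 1 to 4 and 1.85, 0.756, 1.22 and 0.383 CPM in Pulsed 1 to 4. Pulsed 1 lay within the Mettl3-RNP range, and the log2 fold change of 1.11 came with a standard error of 0.367 (adjusted p = 0.126, and 0.0279 when all genes with at least 1 count were tested). Chsy3 had at most 9 counts in a library and was not tested.

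Chst12 showed the smallest adjusted p of the module. It sulfates carbon 4 of the N-acetylgalactosamine of chondroitin, the substrate on which Chst15 then acts. It was 76.5, 112, 68.6 and 109.6 CPM in Mettl3-RNP 1 to 4 and 45.2, 55.5, 22.0 and 49.8 CPM in Pulsed 1 to 4. All Mettl3-RNP libraries were above all Pulsed libraries, and replicate 3 was the lowest of either group. The log2 fold change was 1.13 with a standard error of 0.131 (adjusted p = 0.0111), and by pair the log2 difference ran from 0.76 in replicate 1 to 1.64 in replicate 3. Without replicate 2 the fitted log2 difference was 1.17 at an adjusted p of 0.0566. The study itself named Chst12 from these samples, so its call is not independent evidence. That naming also drew on separate libraries that mapped m6A, in which the study found the Chst12 transcript methylated.

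The other chondroitin sulfotransferases did not pass. Chst11, which has the same 4-O activity, was 126, 144, 128 and 120.1 CPM in Mettl3-RNP 1 to 4 and 115, 110.2, 131 and 84.7 CPM in Pulsed 1 to 4. It was higher in the Mettl3-RNP library of 3 pairs and slightly lower in replicate 3, with a log2 fold change of 0.25, a standard error of 0.0984 and an adjusted p of 0.191. Chst15, which adds the further sulfate that makes the highly sulfated chondroitin of mast cells, was 248, 149.8, 95.1 and 172 CPM in Mettl3-RNP 1 to 4 and 257, 145, 92.2 and 139 CPM in Pulsed 1 to 4. Its libraries followed the replicate number far more closely than the group, and the log2 fold change was 0.09 with a standard error of 0.0790 (adjusted p = 0.581). The dermatan 4-O-sulfotransferase Chst14, the epimerase Dse and the uronyl 2-O-sulfotransferase Ust had log2 fold changes of 0.15, 0.21 and 1.36, the last from at most 25 counts in a library and with a standard error of 0.846. The 6-O-sulfotransferase genes were silent at this depth: Chst3 had 0 counts in all 8 libraries, which allows up to 0.100 CPM in the library with the fewest effective counts, and Chst7 had 2 counts, both in Pulsed 4. Such limits cover counting error only.

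**Figure D3:**
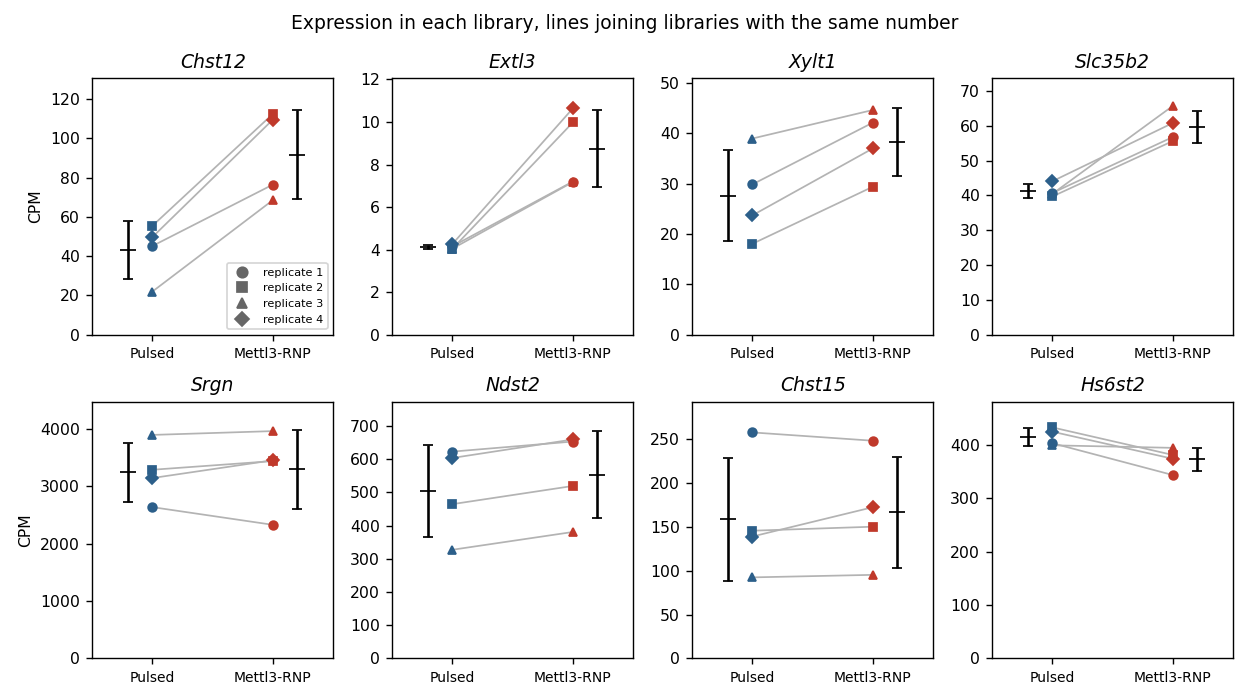
CPM in each library for the 4 genes that rose (upper row) and for Srgn, Ndst2, Chst15 and Hs6st2 (lower row), with lines joining libraries of the same number, a marker shape for each number and bars at the side for the mean ± SD of 4 libraries. Chst12 climbs in every pair, from 22.0 to 68.6 CPM in replicate 3 and from 55.5 to 112 CPM in replicate 2, while the lines of Srgn and Chst15 are nearly level and keep the order of the replicate numbers apart from replicates 2 and 4.

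Sulfate reaches all of these enzymes as PAPS, which Papss1 and Papss2 make in the cytosol and nucleus and Slc35b2 and Slc35b3 carry into the Golgi. Slc35b2 rose, from 41.2 ± 1.94 CPM (SD, n = 4) to 59.7 ± 4.56 CPM (SD, n = 4). It was 56.8, 55.6, 65.7 and 60.8 CPM in Mettl3-RNP 1 to 4 and 40.7, 39.7, 40.4 and 44.1 CPM in Pulsed 1 to 4. The groups were well apart, and the 4 pairs gave similar log2 differences of 0.48, 0.49, 0.70 and 0.46. The log2 fold change was 0.53 with a standard error of 0.0724 (adjusted p = 0.0165), and the adjusted p was 0.0648 without replicate 1 and 0.0872 without replicate 2.

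The other precursor genes did not pass and lay close to 0. Papss2, at 1019.9 ± 285 CPM in Mettl3-RNP and 1017 ± 269 CPM in Pulsed libraries, had a log2 fold change of 0.01 with a standard error of 0.0853 (adjusted p = 0.979). Papss1, Slc35b3 and Ugdh, the dehydrogenase that makes UDP-glucuronic acid, had log2 fold changes of -0.04, -0.06 and -0.09, and Uxs1, which makes UDP-xylose, one of 0.14 (adjusted p between 0.277 and 0.849 for these 4 genes).

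The 4 genes that rose are scattered over the genome (GRCm39): Chst12 at chr5:140488898-140511987 on the plus strand, Extl3 at chr14:65287059-65387357 on the minus strand, Xylt1 at chr7:116979979-117272803 on the plus strand and Slc35b2 at chr17:45874800-45880913 on the plus strand. In the GENCODE M39 annotation their canonical transcripts have 2, 7, 12 and 4 exons, and the coding part of Chst12 is a single exon. The median number of exon junctions per kb of transcript was 0.928 for these 4 genes, 1.34 for the other 32 tested members and 2.62 for 12056 tested protein-coding genes, values given as a description. By gene it was 0.352 (Chst12), 0.668 (Extl3), 1.19 (Xylt1) and 1.57 (Slc35b2). The other 32 members ran from 0 for B3galt6 and Chst14 to 4.39 for Ext2, a range that covers these values. The letters GGACT, a common sequence context of m6A, searched on the sense strand, occurred in the canonical transcripts of 4 of 4 and of 31 of 32 genes, and in 93.8% of those of all tested protein-coding genes.

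The counting was not stated to use strand, and 21 of the 39 members overlap the exons of a gene on the opposite strand, including 3 of the 4 that rose. Slc35b2 shares 266 bases with Hsp90ab1, which was at 2272 ± 561 and 2445 ± 593 CPM in Mettl3-RNP and Pulsed libraries with a log2 fold change of -0.11 (adjusted p = 0.434). Chst12 and Xylt1 overlap Gm38728 and Gm71663 by 281 and 153 bases, and these partners have no row in the count tables. Extl3 overlaps none. The part of reads from the opposite strand in these values was not tested.

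More members passed a test between replicate numbers than between the groups. With the group in the fit, 20 of 36 tested members (55.6%) differed between replicate numbers at an adjusted p of 0.05 or less (edgeR quasi-likelihood test of the 3 block terms together), near the 53.9% of all tested genes. Without replicate 1, 3 or 4 the number was 11, 11 or 13. The shares of all tested genes in those fits are not given here, so these lower numbers are not a result about the members. The series text speaks of 4 mice for 8 samples, from which each number was taken to be a mouse, but a mouse and a culture or a processing run cannot be told apart. Dse, Chst15, Hs3st1, Ndst2, Hs3st3b1 and Papss2 had the smallest adjusted p, and 4 of these genes are named here because their values had been seen.

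Dse was 11.7 CPM in Mettl3-RNP 1 and 11.6 CPM in Pulsed 1 and between 1.66 and 2.93 CPM in the other 6 libraries (adjusted p between numbers = 0.000159). This epimerase makes dermatan sulfate out of chondroitin, and replicate 1 stood apart from the rest in both groups alike. Chst15 was highest in replicate 1 and lowest in replicate 3 in both groups (adjusted p between numbers = 0.000259). Hs3st1 was 303 and 301 CPM in replicate 3 of Mettl3-RNP and Pulsed and between 103 and 172 CPM elsewhere, while Ndst2 was lowest in that same replicate. Hs3st3b1 was also highest in replicate 3, at 6.48 and 10.3 CPM, and lowest in replicate 4, at 1.94 and 1.42 CPM. Papss2 was highest in replicate 4, at 1438 and 1328 CPM, and lowest in replicate 3, at 821 and 739 CPM.

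**Figure D4:**
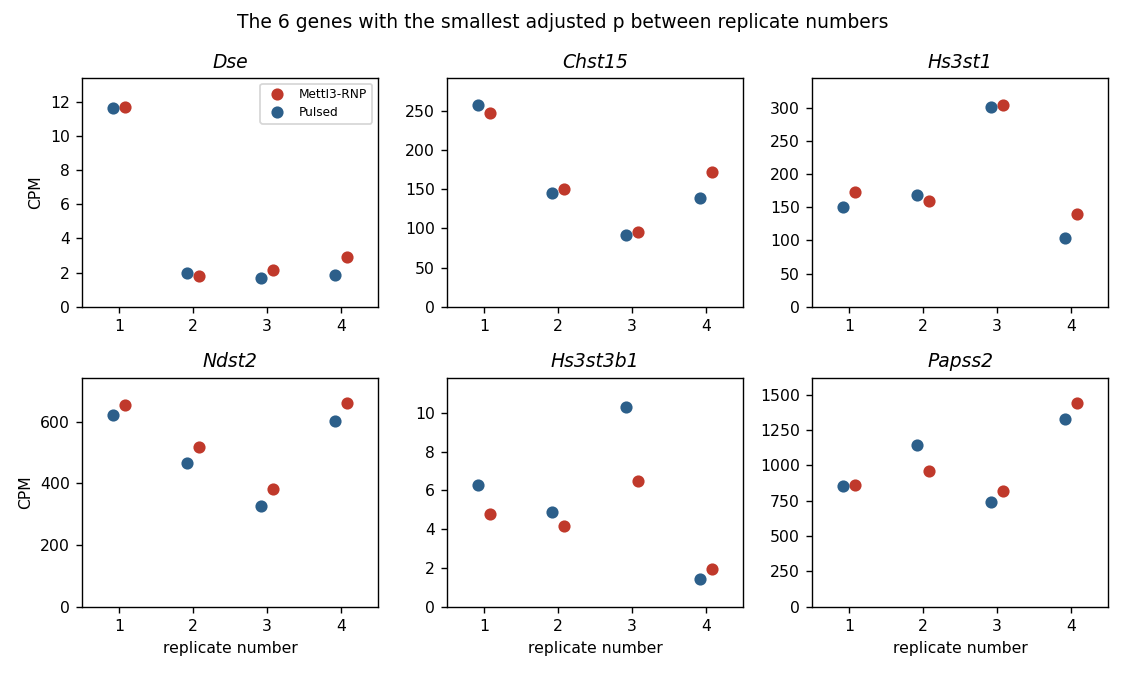
CPM of the 6 genes with the smallest adjusted p between replicate numbers, by replicate number, with Mettl3-RNP in red and Pulsed in blue, 1 point per library. In most panels the points of the same number lie near each other, with the widest gap for Hs3st3b1 in replicate 3. Dse is near 11.7 CPM in replicate 1 only, and Hs3st1 near 301 CPM in replicate 3 only.

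Genes next to the module were read from lists of family members, further precursor and transport genes, breakdown enzymes and other core proteins, 88 genes of which 61 were tested. Of these, 3 rose (4.92%, beside 2.35% of all tested genes) and 2 fell (3.28%, beside 1.39%), with a median log2 fold change of 0.08, beside -0.0013 over all tested genes. Among 7 tested synthesis family members, Chst1, a sulfotransferase of keratan sulfate, rose by 1.44 on the log2 scale (standard error 0.256, adjusted p = 0.0306), and Extl1, a relative of the heparan polymerases, fell by 0.77 (standard error 0.138, adjusted p = 0.0313). Ndst3, at 6.58 CPM per kb in Pulsed libraries, was the highest of this list per kb, ahead of Chst1, Dsel, Extl1 and Sulf2. None of 16 tested precursor and transport genes passed, and Uap1, Gfpt1, Slc35d1, Slc35a2 and Bpnt2 were the highest of them per kb. The median log2 fold changes of these lists were 0.46 and 0.03.

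Of 19 tested genes of glycosaminoglycan breakdown, most of them lysosomal enzymes, 2 rose and none fell, with a median log2 fold change of 0.08. Naglu, which removes N-acetylglucosamine from heparan sulfate, was 60.9, 82.3, 54.7 and 64.8 CPM in Mettl3-RNP 1 to 4 and 39.6, 34.0, 24.8 and 31.9 CPM in Pulsed 1 to 4. The groups did not overlap, and the log2 fold change was 1.02 with a standard error of 0.110 (adjusted p = 0.0105). Naglu too was named by the study, from these samples and from its separate m6A libraries, in which the transcript was found methylated. Galns, a sulfatase of keratan and chondroitin sulfate, rose by 0.78 on the log2 scale (standard error 0.149, adjusted p = 0.0340). Glb1, Hexa and Ids, also lysosomal enzymes, lay between 49.6 and 116 CPM per kb in Pulsed libraries and did not pass.

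Other core proteins were far below Srgn per kb. Vcan, the large chondroitin sulfate proteoglycan versican, led with 34.0 ± 8.80 CPM per kb in Pulsed libraries, followed by Aplp2, Csf1, Cd44 and Sdc4. Aplp2, a relative of the amyloid precursor protein that can carry chondroitin sulfate, fell by 0.45 on the log2 scale (standard error 0.0864, adjusted p = 0.0341). It was the single gene of 19 tested core proteins that passed. All 5 of these related genes lost their call without the replicate block and without replicate 2. Extl1 and Aplp2 also lost it without replicate 1, Extl1, Chst1, Galns and Aplp2 without replicate 3, and Aplp2 without replicate 4.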

How the data were processed

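Libraries were prepared by the authors from poly-A RNA and sequenced as paired ends. Per the labels and the study's methods, reads were checked with FastQC 0.11.9, aligned to GRCm39 with HISAT2 2.2.1 and counted per Ensembl gene with featureCounts 2.0.1. What the authors deposited was raw counts, whole numbers for each gene in 1 table per library. The study describes a later batch correction, which the deposited counts do not carry, and strand settings are not given in the sources used here. IDs without a gene name held at most 0.113% of a library's counts.

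Genes were matched by symbol through GENCODE M39 (GRCm39). Counts were analysed with edgeR 4.0.16 in R 4.3.3 (filterByExpr, TMM, glmQLFit and glmQLFTest), blocked on the replicate number and with Benjamini-Hochberg adjustment over 14942 genes. Levels per kb used the canonical transcript, and the length of all exons as an alternative. Standard errors were derived from the test statistic, and log2 differences of pairs used a prior count of 2. The threshold was an adjusted p of 0.05 and, where stated, a fold change of 1.5. The script was tested on simulated data. Alternatives were no block, other scaling and filters, DESeq2 1.42.0, limma-voom (limma 3.58.1) and leaving out each pair.

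Numbers pair the libraries: after removal of group means, libraries sharing a number correlated at 0.825, 0.489, 0.879 and 0.765 over 11984 genes, against at most 0.183 for other numbers. No library was a copy of another (chi-square per degree of freedom at least 23.7 over all pairs of libraries), and the study describes them as independent biological replicates. Members, lists and tests were chosen with earlier results of these data known. Values by library are given for members that passed, for Srgn, Ext1, Ext2, Ndst1, Ndst2, Chst11, Chst12 and Chst15, and for the 5 largest further fold changes among members with a mean of at least 1 CPM that moved 1 way in 4 of 4 pairs. Related genes are named where they passed or were the 5 highest per kb of their list, and some of the genes this rule takes are not reported here, although they are included in the counts.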

Additional observations from a re-analysis of the deposited data

Results flagged for a closer look

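In groups of 4 libraries, a value was singled out where its gap to the nearest of the others, divided by the range of the group, passed the 95% critical value of Dixon's test. Of 87 groups examined, 6 had such a value, and chance alone gives about 1 in 20. Dse was at 11.7 CPM in Mettl3-RNP 1 and at 11.6 CPM in Pulsed 1, far above the other libraries of either group. Ugdh was at 35.7 CPM in Pulsed 1, below the other Pulsed libraries. Mettl3 was at 11.1 CPM in Pulsed 3, below the other Pulsed libraries. The scarce chondroitin synthase gene Chsy3 was at 0.210 CPM in Mettl3-RNP 2, from 9 counts, and Chst7 was at 0.0547 CPM in Pulsed 4, from 2 counts. In these last groups the other libraries had at most 1 count, so the gap is set by the zeros and alone does not describe the library. Mettl3-RNP 2 also had the most genes with a count of any library, 28483.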

How the results depend on the processing

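The number of members past an adjusted p of 0.05, 4 with the replicate block, was 0 without it, 7 when all genes with at least 1 count were tested and 8 with DESeq2, and it ranged from 0 to 4 when each pair was left out. Calls over all genes moved as well: 559 of 14942 passed with the block, 0 without it, 993 of 33650 with the looser filter, 1358 of 14942 with DESeq2, and 26 to 383 with a pair left out. With a fold change of 1.5 besides, the number was 2, and 0, 4 and 0 to 3 under no block, the looser filter and left-out pairs, where 308, 0, 579 and 26 to 331 of all genes did so. For related genes, whatever their fold change, the number past the adjusted p was 5, and 0 without the block, 8 with the looser filter and 0 to 4 with a pair left out. Members differing between replicate numbers were 20, and 11 to 18 with 1 pair left out, for which the shares of all tested genes are not given here. The 4 genes that rose were called with DESeq2 size factors, with total counts, with either filter, with DESeq2 and with limma-voom, at log2 fold changes of 1.12 to 1.17 (Chst12), 1.07 to 1.10 (Extl3), 0.53 to 0.57 (Slc35b2) and 0.49 to 0.54 (Xylt1). Without the block their adjusted p were 0.755, 0.534, 0.627 and 0.999. The sign turned only for members that did not pass: Ext1 gave 0.016 without the block, 0.025 with total counts, 0.0082 with the looser filter, 0.00028 with DESeq2 and 0.0058 with limma-voom, and Xylt2 0.015 with total counts. With a pair left out the log2 fold change ran across 0 for Srgn (-0.019 to 0.039), Xylt2 (-0.083 to 0.073), B3gat3 (-0.012 to 0.100), Ext1 (-0.081 to 0.033), Hs2st1 (-0.206 to 0.023), Papss1 (-0.142 to 0.036), Papss2 (-0.045 to 0.086) and Slc35b3 (-0.115 to 0.013). The cause was not tested. Depth limits Chst3, Chst7, Chsy3 and Ust, and only 4 pairs limit every call.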
